A study of Mus musculus with 6 samples.

Results

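The genes described here make, sense and export cholesterol, or make, lengthen and desaturate fatty acids, and they were followed in bone marrow neutrophils of the mouse. They are 39 genes picked by symbol for their role, by a rule that uses no measured value. The list was drawn up with earlier results of these data known. Each of the 39 has 1 row among the 52636 rows of the deposited expression table, and 30 of them reached the mean of 1 TPM over all libraries that was required for a test. RNA was sequenced in 6 libraries of primary neutrophils from C57BL/6N mice at 10 weeks of age, 3 with the genotype WT and 3 with the genotype LRP5f/f/Lyz2Cre+, which carry floxed Lrp5 alleles and a Cre recombinase expressed from Lyz2. The latter are called the libraries labelled LRP5-null here. Lyz2 is active in monocytes and macrophages as well as in neutrophils, and the labels give no Cre allele for the WT mice, so deletion of Lrp5 and presence of Cre cannot be told apart. The study asked what LRP5, a co-receptor of Wnt proteins, does in neutrophils and in their handling of polyunsaturated fatty acids.

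Cholesterol is built from acetyl-CoA through mevalonate and squalene, and the enzymes of this route are induced together by the transcription factor SREBP2 (Srebf2) when sterol in the endoplasmic reticulum runs low. SCAP escorts SREBP proteins to the Golgi for cleavage, and the INSIG proteins hold them back when sterol is plentiful. Oxysterols in turn activate the nuclear receptors LXRα (Nr1h3) and LXRβ (Nr1h2), which induce the exporters ABCA1 and ABCG1 and the gene of SREBP1, the form that favours fatty acid synthesis.

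The promoters of 5 sterol genes whose values were apart between the groups are shown first, because cholesterol enzymes are classic SREBP2 targets and Srebf2 encodes that factor. These 5 were picked after the values had been seen. Msmo1 and Insig1, which were lower, and Pmvk, which was higher, were apart as well. Their promoters were searched but are not printed. RefSeq promoter windows of GRCm38.p6, each 250 bases before to 50 bases after a start site, were found for 32 of the 39 genes, in 42 windows. The other 7, Fdps, Fdft1, Sqle, Abcg1, Scd1, Scd2 and Fads1, had no window and were not searched. The bases before the start site are printed 5′ to 3′ on the gene's strand. Capitals mark TCACNCCAC, the sterol regulatory element that SREBP proteins bind, or CCAAT, the box of their partner NF-Y, on either strand (CCAAT reads ATTGG on the other strand). The windows are those of Hmgcs1 (chr13:119690101-119690350, plus strand), Idi1 (chr13:8885356-8885605, plus strand), Cyp51 (chr5:4104698-4104947, minus strand), Sc5d (chr9:42264301-42264550, minus strand) and Srebf2 (chr15:82147019-82147268, plus strand).
Hmgcs1: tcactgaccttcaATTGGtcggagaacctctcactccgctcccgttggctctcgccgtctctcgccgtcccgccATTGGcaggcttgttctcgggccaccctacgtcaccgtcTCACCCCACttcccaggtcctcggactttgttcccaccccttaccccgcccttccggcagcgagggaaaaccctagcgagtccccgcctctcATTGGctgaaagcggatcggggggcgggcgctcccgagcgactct
Idi1: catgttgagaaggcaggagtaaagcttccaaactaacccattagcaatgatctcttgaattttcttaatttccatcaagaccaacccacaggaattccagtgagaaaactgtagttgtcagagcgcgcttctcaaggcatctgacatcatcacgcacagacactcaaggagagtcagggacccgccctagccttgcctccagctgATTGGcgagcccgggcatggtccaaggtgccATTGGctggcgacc
Cyp51: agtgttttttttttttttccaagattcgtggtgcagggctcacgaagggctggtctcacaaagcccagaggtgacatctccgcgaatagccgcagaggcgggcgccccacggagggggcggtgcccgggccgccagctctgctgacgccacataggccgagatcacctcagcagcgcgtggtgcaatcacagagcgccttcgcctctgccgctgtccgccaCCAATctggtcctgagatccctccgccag
Sc5d: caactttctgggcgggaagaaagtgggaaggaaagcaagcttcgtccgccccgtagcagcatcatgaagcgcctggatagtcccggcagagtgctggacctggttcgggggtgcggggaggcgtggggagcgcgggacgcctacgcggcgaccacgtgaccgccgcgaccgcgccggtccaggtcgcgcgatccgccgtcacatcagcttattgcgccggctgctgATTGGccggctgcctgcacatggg
Srebf2: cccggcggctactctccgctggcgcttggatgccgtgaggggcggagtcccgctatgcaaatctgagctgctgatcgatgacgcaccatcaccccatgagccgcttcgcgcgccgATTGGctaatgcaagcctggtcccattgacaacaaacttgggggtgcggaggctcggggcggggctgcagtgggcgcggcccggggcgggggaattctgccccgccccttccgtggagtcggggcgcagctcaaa

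Hmgcs1 was the single gene of the 32 whose window held TCACNCCAC, read there as TCACCCCAC and starting 137 bases before the start site. This motif stood in 2.38% of the 42 windows and in 1.24% of all 32851 windows of the table. CCAAT was in a window of 24 of the 32 genes, and in 59.5% of the 42 windows against 37.4% of all windows. An E-box, CANNTG, stood in 78.6% of the 42 windows and in 72.3% of all windows, and the direct repeat of AGGTCA spaced by 4 bases, which LXR binds, was in 0 of the 42 windows and in 0.0152% of all windows. Over the 9272 windows of genes tested here, the shares were 1.08% for TCACNCCAC, 37.8% for CCAAT and 62.7% for the E-box. Each motif was searched on both strands. Matches are a description of these windows, and a window without a match says only that these letters are not in it.

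Levels are in TPM, which are scaled by transcript length, so that genes can be compared within a library. The highest were Acly, which makes cytosolic acetyl-CoA from citrate, with a mean of 74.7 TPM over the 6 libraries, Elovl1, an elongase of saturated very long chains, with 70.5 TPM, and Nr1h2 with 60.2 TPM. Acly, at 66.3 to 81.8 TPM, and Elovl1, at 66.5 to 78.7 TPM, overlapped in range. Of the sterol enzymes, Msmo1, a sterol C4-methyl oxidase, was highest with 40.2 TPM, followed by Sc5d with 25.7 TPM, Ebp with 24.9 TPM and Hmgcs1 with 21.7 TPM. At the other end stood fatty acid synthase and the desaturases of polyunsaturated chains. Fasn had a mean of 0.515 TPM, Fads1, the delta-5 desaturase, 0.172 TPM, Elovl6 0.0950 TPM, Fads2, the delta-6 desaturase, 0.0499 TPM and Fads3 0.0114 TPM. Lanosterol synthase, Lss, had a mean of 0.499 TPM although the enzymes before and after it, Sqle at 2.61 TPM and Cyp51 at 7.77 TPM, passed the filter. The 9 genes below the filter were Lss, Nr1h3, Abca1, Fasn, Scd1, Fads1, Fads2, Fads3 and Elovl6, and Dhcr7, with a mean of 1.02 TPM, passed it narrowly.

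**Figure D1:**
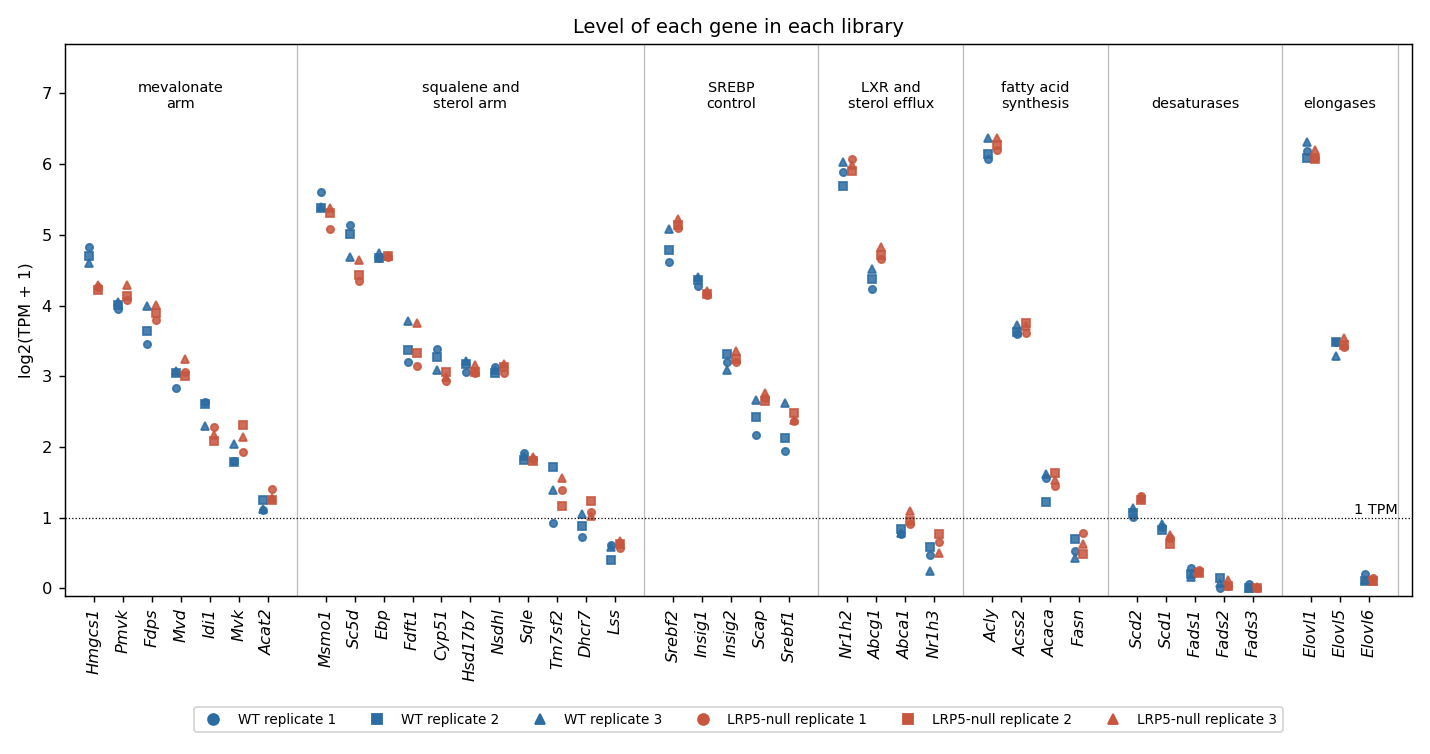
Level of each of the 39 genes in each of the 6 libraries, as log2(TPM + 1) on the vertical axis, by role along the horizontal axis; blue points are WT and red points LRP5-null, the symbol gives the replicate, and the dotted line marks 1 TPM. Acly, Elovl1 and Nr1h2 lie highest, and Fasn, Lss, Nr1h3 and the Fads genes lie below the line in every library.

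The libraries held 249841492 to 340580330 reads, with 99.37% to 99.51% on the correct strand by the read summary. Lrp5 itself, the targeted gene, was at 1.12, 1.31 and 1.42 TPM in the WT libraries and at 1.68, 1.77 and 2.07 TPM in those labelled LRP5-null, so its transcript was not lower there. Lyz2, the gene that carries the Cre, was at 24797 to 26791 TPM in the WT libraries and at 13360 to 14027 TPM in those labelled LRP5-null. Ly6g, a neutrophil surface marker, was at 920 to 1104 TPM across the libraries. WT replicate 3 stood apart from the other WT libraries: its ribosomal share of reads was 3.30%, against 1.20% and 1.30% in WT replicates 1 and 2 and between 2.69% and 2.98% for the LRP5-null label. The deviation of a library from the mean of all libraries correlated over the tested genes with transcript GC content at Spearman's rho -0.61 and -0.43 in WT replicates 1 and 2 and at 0.33 to 0.44 in the other 4 libraries. Intronic reads were 7.78% to 9% in the WT libraries and 10.62% to 11.23% in those labelled LRP5-null. The sources do not say whether libraries of a group came from separate animals, so the p-values measure the spread between these libraries, which may be technical. In bulk RNA, fewer cells of a kind and less RNA per cell cannot be told apart.

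Between the groups, none of the 30 tested genes reached an adjusted p under 0.05 (limma on log2(TPM + 1), Benjamini-Hochberg over 9775 genes), where 0.532% of all genes did, with 0.266% above WT and 0.266% below, and 0 did without a variance trend or with robust shrinkage. At an unadjusted p under 0.05 there were 8 genes, or 26.7% of the 30, against 23.5% of all genes. These were Hmgcs1, Idi1, Sc5d, Cyp51 and Insig1, which were lower in the libraries labelled LRP5-null (16.7% of the 30, against 9.12% of all genes), and Srebf2, Abcg1 and Scd2, which were higher (10% of the 30, against 14.4% of all genes). Rescaling the TPM after leaving out mitochondrial transcripts and the top 20 genes gave 6 higher and 4 lower of 34 tested at that p. The share of all genes at that p was not computed for this scaling, so these counts have no standard beside them. The groups did not overlap for 10 of the 30 genes, or 33.3%, against 29.7% of all genes, with 4 above (13.3%, against 17.4% of all genes) and 6 below (20%, against 12.3% of all genes). The median log2 fold change of the 30 was 0.06, with 20 above 0 and 10 below, beside a median of 0.04 over all genes, and the fold changes ran from -0.47 to 0.35. In the main comparison, the shares in both directions together lay near those of all genes. The shares in single directions differed more, lower counts lying above and higher counts below them. This split varied with the scaling. Median-ratio scaling gave 2 higher and 6 lower of 30 tested at that p, and quantile normalization 2 higher and 5 lower. Only after the rescaling above did higher counts outnumber lower ones. The share of all genes at that p was not computed for any of these scalings.

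**Figure D2:**
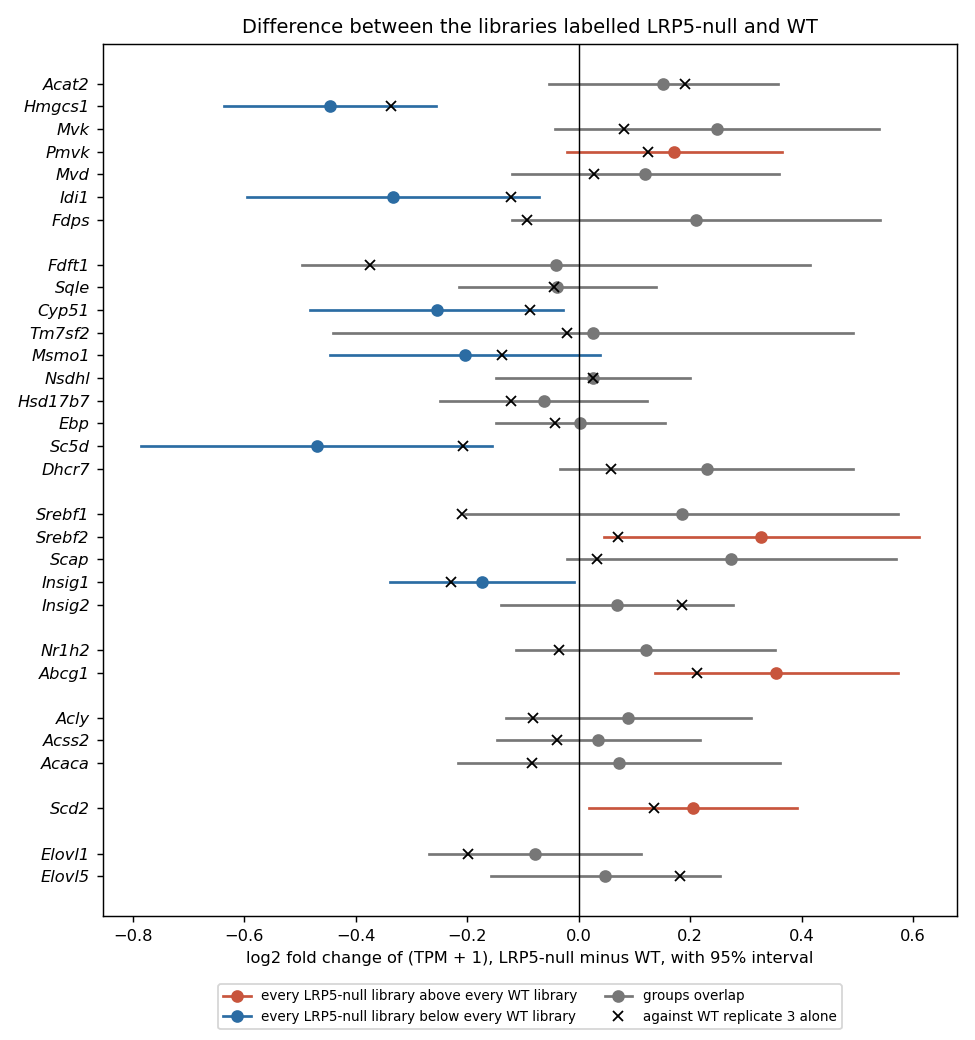
Log2 fold change of (TPM + 1), LRP5-null minus WT, of the 30 tested genes with the 95% interval from limma, by role; red genes have every LRP5-null library above every WT library, blue genes every one below, grey genes overlap, and crosses give the same difference against WT replicate 3 alone. The largest differences are those of Sc5d (-0.47), Hmgcs1 (-0.45) and Abcg1 (0.35), and the crosses of all coloured genes but Insig1 lie nearer 0 than the points.

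In the mevalonate arm, which leads from acetyl-CoA to farnesyl diphosphate, all 7 genes were tested, 5 had a fold change above 0 and 2 below, and the median log2 fold change was 0.15. Both genes below 0 had an unadjusted p under 0.05 and groups that did not overlap. Hmgcs1, the cytosolic HMG-CoA synthase, was at 27.4, 24.9 and 23.2 TPM in WT replicates 1 to 3 and at 18.2, 17.7 and 18.7 TPM in LRP5-null replicates 1 to 3. Every library labelled LRP5-null was below every WT library, and the means were 25.2 ± 2.12 TPM (SD, n = 3) for WT and 18.2 ± 0.486 TPM (SD, n = 3) for LRP5-null. Its log2 fold change was -0.45 (SE 0.082, 95% interval -0.64 to -0.26) with an adjusted p of 0.0648 from limma, the smallest of the 39 genes. Idi1, the isopentenyl diphosphate isomerase, was at 5.19, 5.09 and 3.93 TPM in the WT libraries and at 3.87, 3.26 and 3.49 TPM in those labelled LRP5-null. The groups were apart by the small gap between WT replicate 3 and LRP5-null replicate 1, and the log2 fold change was -0.33 (SE 0.11, adjusted p = 0.155 from limma).

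Pmvk, the phosphomevalonate kinase, went the other way, with 14.4, 15.03 and 15.5 TPM in the WT libraries and 15.9, 16.6 and 18.6 TPM in those labelled LRP5-null. Its groups did not overlap, but the difference was small at 0.17 on the log2 scale (SE 0.082, adjusted p = 0.251 from limma). Mvk, the mevalonate kinase (log2 fold change 0.25), Mvd, the decarboxylase after Pmvk (0.12), Fdps, which makes farnesyl diphosphate (0.21), and Acat2, the cytosolic thiolase at the head of the route (0.15), overlapped between the groups, with adjusted p of 0.271 to 0.507 from limma. How reads shared by Acat2 and its close copy Acat3, or by the Scd genes, were assigned is not given in the sources used here.

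In the squalene and sterol arm, 10 of 11 genes were tested, 4 had a fold change above 0 and 6 below, and the median log2 fold change was -0.04. Sc5d, the lathosterol oxidase near the end of the route, was at 34.2, 31.4 and 24.7 TPM in the WT libraries and at 19.3, 20.6 and 24.1 TPM in those labelled LRP5-null. All 3 of the latter were lower, but WT replicate 3 and LRP5-null replicate 3 were nearly level. The means were 30.1 ± 4.86 TPM (SD, n = 3) and 21.4 ± 2.50 TPM (SD, n = 3), and the log2 fold change was -0.47 (SE 0.13, adjusted p = 0.127 from limma). Cyp51, the lanosterol demethylase, was at 9.46, 8.71 and 7.48 TPM in the WT libraries and at 6.68, 7.36 and 6.92 TPM in those labelled LRP5-null. Again WT replicate 3 was the WT library nearest to the other group, and the log2 fold change was -0.25 (SE 0.097, adjusted p = 0.181 from limma).

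Msmo1 was the other gene of this arm whose groups did not overlap, at 40.50 to 47.9 TPM in the WT libraries and at 33.0 to 40.49 TPM in those labelled LRP5-null, so that WT replicate 2 and LRP5-null replicate 3 were level (log2 fold change -0.20, adjusted p = 0.277 from limma). It is named for that count, after its values had been seen. Sqle, squalene epoxidase and a control point of the route, was at 2.78, 2.51 and 2.67 TPM in the WT libraries and at 2.57, 2.48 and 2.63 TPM in those labelled LRP5-null. The groups overlapped, and the 95% interval of its log2 fold change ran from -0.22 to 0.14. Dhcr7, the last reductase of the route, was at 0.650, 0.844 and 1.08 TPM in the WT libraries and at 1.12, 1.36 and 1.04 TPM in those labelled LRP5-null. Only LRP5-null replicate 3 was below WT replicate 3, so these groups overlapped, and the log2 fold change was 0.23 (SE 0.11, adjusted p = 0.260 from limma).

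The remaining genes of this arm differed little between the means. Fdft1, squalene synthase, had a log2 fold change of -0.04, but its libraries ranged from 7.88 to 12.8 TPM, and in both groups replicate 3 was highest, so that its 95% interval of -0.50 to 0.42 was wide. Ebp, a sterol isomerase, had the smallest difference of the 30 genes, 0.0029 on the log2 scale, with a 95% interval of -0.15 to 0.15. Nsdhl (0.03), Hsd17b7 (-0.06) and Tm7sf2 (0.03), which act on the sterol rings, overlapped between the groups as well, with Tm7sf2 spread from 0.907 to 2.28 TPM within the WT libraries alone. Lss was at 0.327 to 0.536 TPM in the WT libraries and at 0.490 to 0.587 TPM in those labelled LRP5-null.

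Over both arms, 17 of 18 enzyme genes were tested, 9 with a fold change above 0 and 8 below, with a median of 0.0029. The genes apart between the groups were thus 5 lower (Hmgcs1, Idi1, Cyp51, Msmo1 and Sc5d) and 1 higher (Pmvk) of 17, beside 12.3% and 17.4% of all genes, while the summed level of the mevalonate arm, at 66.8 to 69.4 TPM in the WT libraries and 62.7 to 69.2 TPM in those labelled LRP5-null, overlapped. The summed level of the squalene and sterol arm, to which Msmo1 contributes most, was 133 to 144 TPM in the WT libraries and 112 to 131 TPM in those labelled LRP5-null. For Hmgcs1, Idi1, Cyp51, Sc5d and Pmvk, though not for Msmo1, WT replicate 3 was the WT library nearest to the other group.

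**Figure D3:**
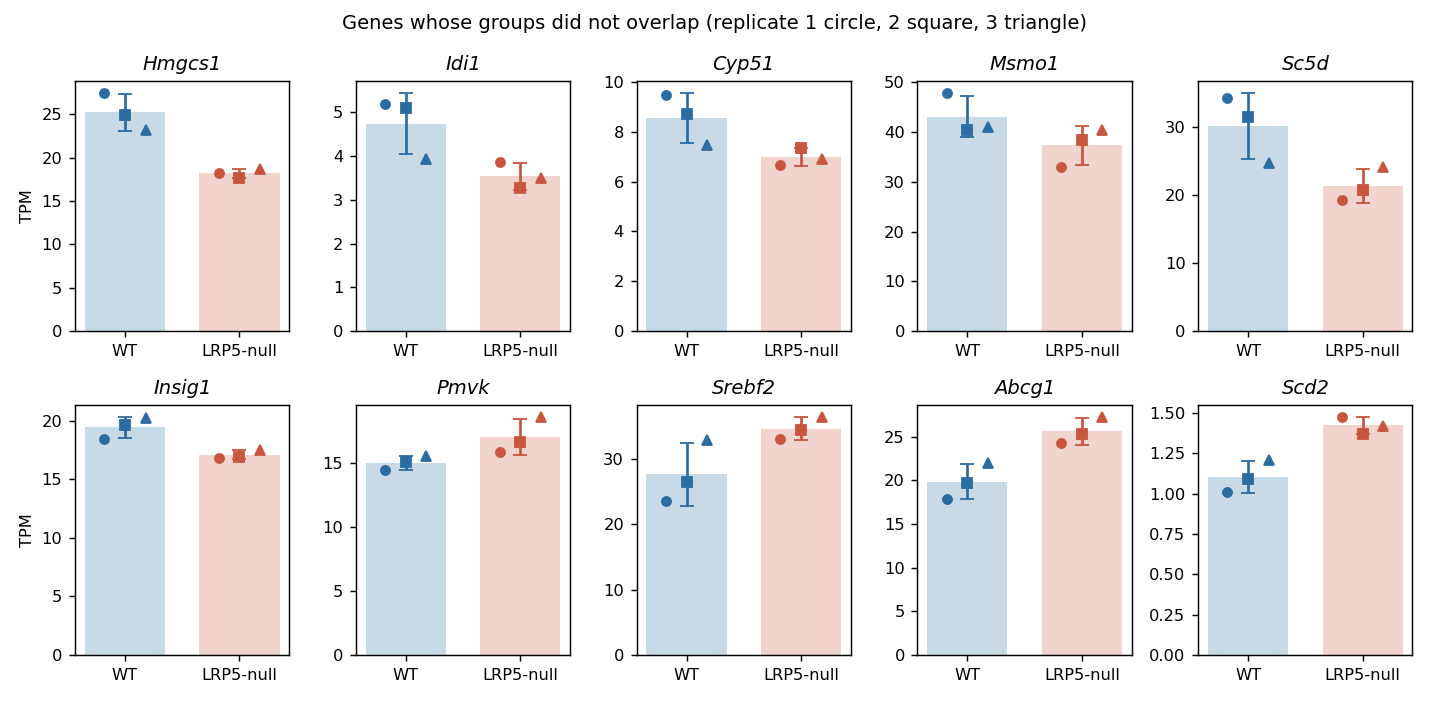
TPM of the 10 tested genes whose groups did not overlap; bars are the means, error bars the SD over 3 libraries, and symbols the single libraries. Hmgcs1 lies at 17.7 to 18.7 TPM in the LRP5-null libraries and at 23.2 to 27.4 TPM in the WT libraries. For every gene but Msmo1 and Insig1, the triangle of WT replicate 3 is the WT symbol nearest to the LRP5-null libraries.

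The genes that control these enzymes were at levels well above 1 TPM, and 4 of the 5 had a fold change above 0. Srebf2, at 23.6, 26.5 and 32.9 TPM in the WT libraries and 33.1, 34.4 and 36.5 TPM in those labelled LRP5-null, was higher in every library of the latter. The gap was 32.9 against 33.1 TPM, between WT replicate 3 and LRP5-null replicate 1, and the log2 fold change was 0.33 (SE 0.12, 95% interval 0.04 to 0.61, adjusted p = 0.173 from limma). Insig1, which retains SREBP proteins and is itself an SREBP target, was at 18.4, 19.6 and 20.2 TPM in the WT libraries and at 16.8, 16.9 and 17.5 TPM in those labelled LRP5-null. Here every library labelled LRP5-null was lower and WT replicate 3 was the farthest from them, with a log2 fold change of -0.17 (SE 0.071, adjusted p = 0.199 from limma). Insig1 lies on chromosome 5 from 28397952 to 28405201 on the plus strand of NCBIM37.

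Scap was at 3.52, 4.39 and 5.34 TPM in the WT libraries and at 5.44, 5.25 and 5.77 TPM in those labelled LRP5-null, and the groups overlapped through WT replicate 3 (log2 fold change 0.27, SE 0.13, adjusted p = 0.238 from limma). Srebf1, at 2.84, 3.35 and 5.15 TPM in the WT libraries and 4.18, 4.60 and 4.21 TPM in those labelled LRP5-null, had its highest value in WT replicate 3. Its log2 fold change was 0.18 (adjusted p = 0.526 from limma), and it changed sign against WT replicate 3 alone, at -0.21. Insig2, the INSIG form that is not an SREBP target, overlapped between the groups (0.07).

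Of the LXR and sterol efflux genes, Abcg1, the exporter that passes cholesterol to high-density lipoprotein, had the clearest difference, at 17.9, 19.7 and 22.0 TPM in the WT libraries and 24.2, 25.3 and 27.3 TPM in those labelled LRP5-null. All libraries labelled LRP5-null were higher, and the means were 19.9 ± 2.03 TPM (SD, n = 3) for WT and 25.6 ± 1.56 TPM (SD, n = 3) for LRP5-null, with a log2 fold change of 0.35 (SE 0.093, 95% interval 0.14 to 0.57, adjusted p = 0.113 from limma). Abcg1 lies on chromosome 17 from 31194643 to 31252722 on the plus strand of NCBIM37. Abca1, the exporter to lipid-poor apolipoprotein, was below the filter, at 0.706, 0.799 and 0.721 TPM in the WT libraries and 0.874, 0.941 and 1.13 TPM in those labelled LRP5-null. Its groups did not overlap either, which is why it is given, after its values had been seen, and without the filter its log2 fold change was 0.18 (SE 0.077, adjusted p = 0.349 from limma).

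The receptors themselves differed in level. Nr1h2 was at 58.4, 50.7 and 64.1 TPM in the WT libraries and at 66.6, 58.6 and 62.7 TPM in those labelled LRP5-null, and Nr1h3 at 0.390, 0.505 and 0.181 TPM and at 0.574, 0.703 and 0.410 TPM. Both overlapped between the groups, and LXRβ was by far the more abundant transcript. The log2 fold change of Nr1h2 was 0.12 (adjusted p = 0.493 from limma) and that of Nr1h3, without the filter, 0.20 (adjusted p = 0.473 from limma). ABCA1 and ABCG1 are abundant in macrophages. The summed level of 8 monocyte and macrophage markers was 55.9 to 67.6 TPM in the WT libraries and 65.9 to 74.3 TPM in those labelled LRP5-null, and of the 6 tested, 4 had a fold change above 0 and 2 below. Adgre1, C1qa and C1qb were higher at an unadjusted p under 0.05, where 14.4% of all genes were, while Csf1r, at 31.4 to 41.0 and 36.9 to 42.5 TPM, overlapped and Ccr2 (-0.10) and Vcam1 (-0.06) had log2 fold changes below 0. Cx3cr1, at 0.236 to 0.346 TPM in the WT libraries and 0.190 to 0.207 TPM in those labelled LRP5-null, was lower in each of the latter, and Mertk, at 0.121 to 0.240 and 0.242 to 0.291 TPM, was higher. The part of these cells in the values of Abcg1 and Abca1 was not tested.

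In fatty acid synthesis, none of the 3 tested genes was apart between the groups, and all 3 fold changes lay between 0.04 and 0.09. Acly was at 66.3, 69.7 and 81.3 TPM in the WT libraries and at 72.5, 76.5 and 81.8 TPM in those labelled LRP5-null (log2 fold change 0.09, 95% interval -0.13 to 0.31, adjusted p = 0.592 from limma). Acss2, which makes acetyl-CoA from acetate, was at 11.1, 11.4 and 12.2 TPM in the WT libraries and at 11.2, 12.4 and 12.1 TPM in those labelled LRP5-null, with a 95% interval of -0.15 to 0.22. These enzymes supply the acetyl-CoA used by both routes.

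The committed steps were far lower. Acaca, acetyl-CoA carboxylase, was at 1.94, 1.32 and 2.08 TPM in the WT libraries and at 1.73, 2.11 and 1.89 TPM in those labelled LRP5-null, and Fasn, fatty acid synthase, at 0.441, 0.627 and 0.342 TPM and at 0.729, 0.400 and 0.553 TPM. Both overlapped between the groups, and the 95% interval for Acaca, -0.22 to 0.36, leaves room for a change in either direction. Without the filter, the log2 fold change of Fasn was 0.09 (95% interval -0.18 to 0.35).

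The desaturases were sparse, and the stearoyl-CoA desaturases Scd1 and Scd2, neighbours on chromosome 19 that place the first double bond in a saturated chain, had values in opposite directions. Scd2 was at 1.01, 1.09 and 1.21 TPM in the WT libraries and at 1.48, 1.37 and 1.42 TPM in those labelled LRP5-null, higher in every library of the latter (log2 fold change 0.21, SE 0.080, adjusted p = 0.184 from limma). Scd1 was at 0.820, 0.772 and 0.887 TPM in the WT libraries and at 0.635, 0.541 and 0.688 TPM in those labelled LRP5-null, lower in every library, and without the filter its log2 fold change was -0.17 (95% interval -0.33 to -0.01, adjusted p = 0.302 from limma). On NCBIM37, Scd1 spans 44468941 to 44482199 on the minus strand and Scd2 spans 44368166 to 44381354 on the plus strand.

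The desaturases and elongases that make long polyunsaturated chains bear on the question of the study, which concerns polyunsaturated fatty acids. Fads1 was at 0.222, 0.157 and 0.123 TPM in the WT libraries and at 0.194, 0.161 and 0.177 TPM in those labelled LRP5-null. Fads2 was listed at 0, 0.112 and 0.0526 TPM in the WT libraries and at 0.0253, 0.0262 and 0.0830 TPM in those labelled LRP5-null, and Fads3 was at or below 0.0434 TPM in every library. Each of these genes overlapped between the groups. Without the filter, the log2 fold change was 0.01 for Fads1 (95% interval -0.07 to 0.10) and -0.01 for Fads2 (95% interval -0.12 to 0.10). This scale understates the change of genes so low, and TPM keeps no read counts from which a limit could be set. Elovl5, the elongase of polyunsaturated chains, was in contrast at 10.2, 10.3 and 8.75 TPM in the WT libraries and at 9.69, 9.82 and 10.7 TPM in those labelled LRP5-null. Its groups overlapped, with a 95% interval of -0.16 to 0.25 on the log2 scale. Elovl1 was at 71.8, 66.9 and 78.7 TPM in the WT libraries and at 66.7, 66.5 and 72.3 TPM in those labelled LRP5-null, again with overlap (log2 fold change -0.08, adjusted p = 0.588 from limma). Elovl6, which lengthens palmitate, was at 0.0811 to 0.152 TPM in the WT libraries and at 0.0713 to 0.107 TPM in those labelled LRP5-null.

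Many of these values changed when WT replicate 3 was left out or taken alone. This library lay nearer to the mean of the libraries labelled LRP5-null than to that of the other WT libraries for 18 of the 30 genes. That is 60%, near the 61.7% of all genes, so it is no trait of these genes. Without it, 9 of the 30 genes had an adjusted p under 0.05 in limma, where 19.6% of all genes did: Hmgcs1 (-0.50), Idi1 (-0.44), Sc5d (-0.60) and Cyp51 (-0.34) were lower (7.57% of all genes), and Srebf1 (0.38), Srebf2 (0.46), Scap (0.39), Fdps (0.36) and Abcg1 (0.43) were higher (12.1% of all genes). Against WT replicate 3 alone, a library with no spread of its own, only effect sizes are given here. The log2 fold changes were -0.34 for Hmgcs1, -0.12 for Idi1, -0.21 for Sc5d and -0.09 for Cyp51. They were 0.07 for Srebf2, 0.21 for Abcg1 and -0.09 for Fdps, which turned in sign. Insig1 was the exception among the genes apart between the groups, with -0.23 against WT replicate 3 alone, a larger difference than the -0.17 against all WT libraries.

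Transcript GC content moved with these differences too. The 5 genes apart and lower with a GC value had 41.49% to 47.75% GC in their longest coding transcript, the 4 apart and higher had 49.53% to 57.55%, and the 20 that overlapped had 43.89% to 60.58%. Across the 29 tested genes with a value, the log2 fold change correlated with GC content at Spearman's rho 0.70, and across all 8769 genes with a value at 0.49. Genes share libraries and are not independent replicates, so no p is given. Hmgcs1 was not in the annotation used and had no GC value. After the trend of each library with GC content and length had been removed, the correlation was 0.38 over the 29 genes and -0.0014 over all genes, and Abcg1 was the 1 gene of the 29 with an adjusted p under 0.05 in limma (log2 fold change 0.27, adjusted p = 0.0364), where 4.9% of all genes had one. Sc5d then stood at -0.37, Cyp51 at -0.23, Idi1 at -0.17, Insig1 at -0.16, Srebf2 at 0.17, Scd2 at 0.14 and Pmvk at 0.03.

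**Figure D4:**
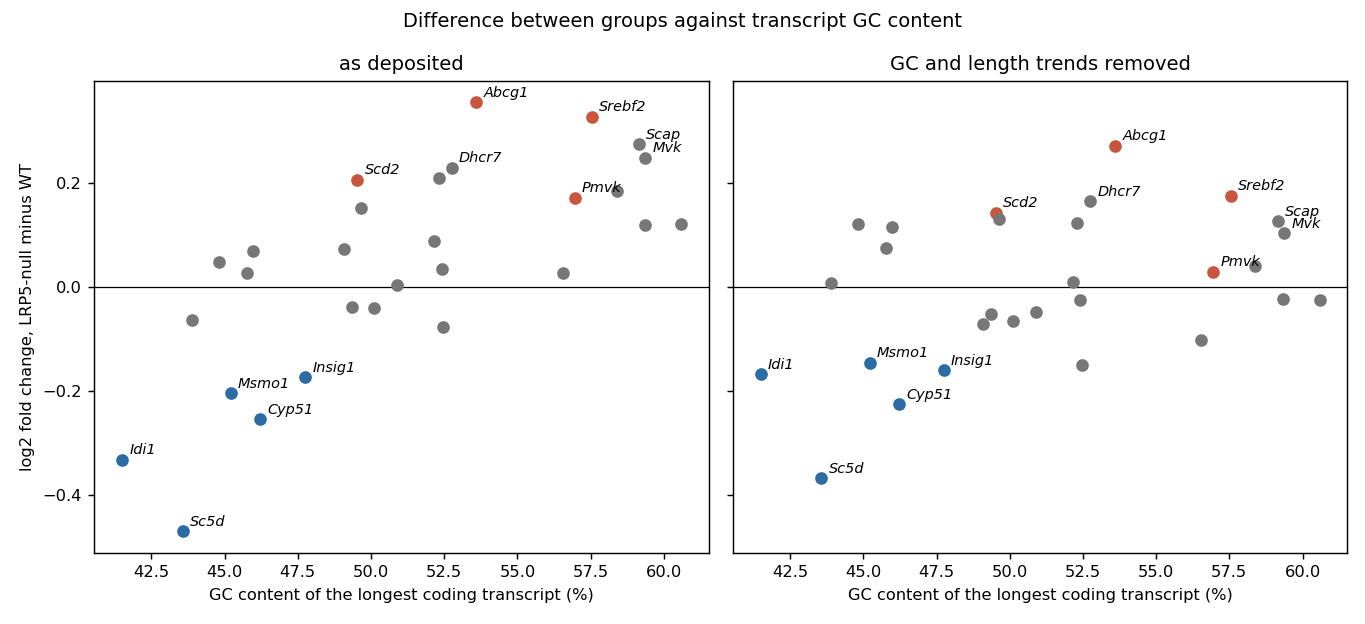
Log2 fold change, LRP5-null minus WT, against the GC content of the longest coding transcript for the 29 tested genes that have one, as deposited on the left and with GC and length trends removed on the right; red genes have every LRP5-null library above every WT library, blue genes every one below, and grey genes overlap, all by TPM as deposited. The blue genes lie at 41.49% to 47.75% GC and the red genes at 49.53% to 57.55%, and on the right Idi1 moves from -0.33 to -0.17, Srebf2 from 0.33 to 0.17 and Pmvk from 0.17 to 0.03, while Cyp51 and Insig1 stay nearly in place.

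No other gene listed for the same pathways passed the test. Of 24 other sterol genes, among them receptors, sterol carriers and SREBP proteases, 21 were tested, 0 were called by limma, 3 were higher and 2 lower at an unadjusted p under 0.05 (14.4% and 9.12% of all genes), and the median log2 fold change was 0.05. Mylip, an LXR-induced ubiquitin ligase that degrades the LDL receptor, was at 34.6, 34.8 and 35.1 TPM in the WT libraries and at 41.6, 42.2 and 45.4 TPM in those labelled LRP5-null. The WT libraries lay within 1 TPM of each other, WT replicate 3 included, and the log2 fold change was 0.30 (SE 0.067, adjusted p = 0.0907 from limma). Rnf139, an ubiquitin ligase of the endoplasmic reticulum (-0.38, adjusted p = 0.132 from limma), and Soat1, which esterifies cholesterol (-0.20, adjusted p = 0.150 from limma), were lower in every library labelled LRP5-null, and Rnf139 stood at -0.23 with GC and length trends removed and at -0.13 against WT replicate 3 alone.

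Of 26 other fatty acid genes, 13 were tested, 0 were called by limma, 1 was higher and 4 were lower at an unadjusted p under 0.05 (14.4% and 9.12% of all genes), and the median log2 fold change was -0.06. Hacd4, a 3-hydroxyacyl-CoA dehydratase, was at 156, 149 and 133 TPM in the WT libraries and at 113, 114 and 117 TPM in those labelled LRP5-null (log2 fold change -0.35, SE 0.076, adjusted p = 0.0892 from limma). Its relative Hacd2 (-0.31, adjusted p = 0.139 from limma) and the elongase Elovl7 (-0.24, adjusted p = 0.114 from limma) were also lower in every library labelled LRP5-null, and Elovl7 stood at -0.12 with GC and length trends removed. Tecr (-0.04) and Hsd17b12 (-0.29), which act in the same elongation cycle, overlapped between the groups.

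Some markers of neutrophil maturity and of other cells differed between the groups, while others overlapped. Their part in the values above was not tested. Of 13 immature neutrophil markers, 12 had a fold change above 0 and 6 were higher at an unadjusted p under 0.05 (14.4% of all genes), with a summed level of 71774 to 79107 TPM in the WT libraries and 74689 to 78836 TPM in those labelled LRP5-null. Of 11 mature markers, 9 had a fold change below 0 and 6 were lower at an unadjusted p under 0.05 (9.12% of all genes), with a summed level of 37148 to 41150 TPM and 35765 to 37208 TPM, and the chemokine gene Cxcl2 fell (log2 fold change -0.48, adjusted p = 0.0371 from limma). Of other lineages, the summed T and NK cell markers were at 11.2 to 13.2 TPM and 15.6 to 17.1 TPM, most of it Cd3d, with Cd3e at or below 0.180 TPM. The eosinophil, basophil and mast cell markers summed to 10.9 to 12.9 TPM and 13.8 to 15.02 TPM. Most of that sum was Siglecf, which overlapped, while Prg2, an eosinophil granule protein gene, rose from a mean of 1.02 to 2.79 TPM (log2 fold change 0.91, adjusted p = 0.0341 from limma) and Epx, at or below 0.0344 TPM in the WT libraries, was at 0.0675 to 0.141 TPM in those labelled LRP5-null. Against WT replicate 3 alone the log2 fold changes were -0.40 for Cxcl2 and 0.88 for Prg2. Megakaryocyte markers summed to 3.74 to 5.38 TPM and 5.75 to 6.65 TPM, B cell markers to 11.7 to 12.9 TPM and 11.1 to 11.9 TPM and erythroid markers to 48.1 to 57.0 TPM and 42.3 to 54.0 TPM.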

How the data were processed

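The 6 libraries hold RNA from bone marrow neutrophils, 3 per genotype label. Both the methods and the submitters' processing notes give mm9 as the build and DESeq2 as the tool for expression. The authors deposited TPM, in which transcript length is taken out and each library scaled to a fixed total; the tool is not given in the sources used here, and the identifiers are later than mm9 annotation. TPM keeps no counts, so the counting error of a gene is unknown. A read summary was deposited too, with read counts, shares in percent, a ratio for coverage at transcript ends, a coverage variation score and lengths in bases. The labels name a Percoll gradient and an mRNA kit, while the methods name a sort on CD11b and Ly6G, single-end reads and a stranded kit for total RNA, and the read summary lists reads of 94 bases; these sources were not reconciled.

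Genes averaging 1 TPM or more in the 6 libraries entered limma 3.58.1 (R 4.3.3) as log2(TPM + 1), with the variance trended on the mean, no covariate and Benjamini-Hochberg adjustment over all 9775 genes. A fold change on this scale understates the change of low genes. Groups of 3 against 3 cannot go below p = 0.1 in an exact permutation test, so groups that do not overlap are given as counts. The 39 genes, the pathway and marker lists and the naming rule were chosen with earlier results of these data known. The rule names the 3 genes with the smallest p in each role group, the usual control points whatever their values, and, in each other pathway list without a call, the 3 of lowest p. GC content and length came from the longest coding transcript in GENCODE M1 (NCBIM37), and the trends were natural splines with 4 degrees of freedom per library. The limma step was checked on simulated data with known changes. Alternatives were another pseudocount, filters, scalings, limma settings, each library left out, a replicate block, removal of trends with GC content and length, and the ribosomal share as a covariate.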

Additional observations from a re-analysis of the deposited data

How the results depend on the processing

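Beside the count of 0 genes called in limma, 9 were called without WT replicate 3 and 1 with GC and length trends removed, and leaving out each library in turn gave 0 to 9. The median log2 fold change of the tested genes was 0.06, and it was -0.0078 with median-ratio scaling, -0.0009 with quantile normalization, -0.041 against WT replicate 3 alone, -0.021 with the ribosomal share as a covariate and 0.0067 with trends removed (leave-one-out 0.025 to 0.0997). The groups of 10 genes did not overlap, against 11 to 18 with a library left out, where 35.5% to 56.1% of all genes were apart. With WT replicate 3 alone the count was 19, and 65.2% of all genes were then apart. Fewer libraries make overlap rarer. Of the genes named by the rule, the sign turned against WT replicate 3 alone for Srebf1 (-0.21), Acaca (-0.083), Nr1h2 (-0.035), Acly (-0.081) and Acss2 (-0.040), with the ribosomal covariate for Srebf1 (-0.084), Acaca (-0.033), Acly (-0.034) and Acss2 (-0.022), with trends removed for Acaca (-0.071), Nr1h2 (-0.0255) and Acss2 (-0.025), with median-ratio scaling for Acss2 (-0.032) and Elovl5 (-0.019) and with quantile normalization for Acaca (-0.020) and Acss2 (-0.015). Leaving out a library gave -0.0515 to 0.15 for Acaca and -0.019 to 0.0845 for Elovl5. Of the other tested genes, Fdps (-0.093), Tm7sf2 (-0.021) and Ebp (-0.043) turned against WT replicate 3 alone, and Mvd (-0.024), Tm7sf2 (-0.10), Ebp (-0.0485) and Hsd17b7 (0.0067) with trends removed. The cause of these turns was not tested. Over the fold changes of the named genes, 408 values under an alternative kept their direction and side of the threshold, 18 turned and 16 passed the threshold newly, 13 of these without WT replicate 3; Mylip (0.28, adjusted p = 0.0299 from limma) and Hacd4 (-0.23, adjusted p = 0.0320 from limma) did so with trends removed.

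Calls over all genes were 52, and they were 3 without a filter, 29 at 5 TPM, 83 with median-ratio scaling (36.1% higher, against 50% in the main comparison), 99 after rescaling the TPM with mitochondrial transcripts and the top 20 genes left out (72.7% higher), 36 without a trend, 61 with robust shrinkage, 6 against WT replicate 3 alone, 6 with the ribosomal covariate, 430 with trends removed (36.5% higher) and 2 to 1920 with a library left out. Whether the replicate numbers pair the libraries was not settled. Correlations of same-numbered deviations were 0.23, -0.0075 and 0.13, with the own number best for replicates 1 and 3 but not for 2. With a replicate block, 0 of the 30 genes were called, the median was 0.06 and 4 genes were called over all. TPM keeps no counts, so what depth limits could not be judged per gene.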
